A study of Mus musculus and Homo sapiens with 12 samples.

Results

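MDA-MB-231, an established human breast adenocarcinoma line with mesenchymal features, was compared with and without PFKFB4 across all genes with enough signal to test. A gene was kept when 3 or more of the 6 human libraries reached 0.5 TPM, which left 15299 of the 60233 identifiers in the human table. TPM is a transcript abundance corrected for gene length and scaled to the same total in every library. The 6 libraries are among 12 in the series, with 3 from wild-type cells and 3 from PFKFB4 knockout cells. Both groups were kept in high-glucose DMEM with serum and received no treatment. How the knockout was made, and whether it is 1 clone or a pool, is not stated in the labels. The knockout columns bear the code G2, which no label explains, and were assigned by elimination because the other 3 columns are named wild type.

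PFKFB4 is a bifunctional enzyme that both makes and removes the regulatory form of fructose bisphosphate, a strong allosteric activator of phosphofructokinase in glycolysis. Through that molecule it can shift glucose carbon between glycolysis and the pentose phosphate pathway. It has been studied in breast cancer cells also as a kinase that acts on a transcriptional coactivator.

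The human table lists Ensembl identifiers without gene names. Of its identifiers, 0 matched the name table used here, which holds mouse genes. Gene names, pathway membership, chromosome positions and sequences are therefore not given. The PFKFB4 transcript itself and the defining markers of the line, of leukocytes, of endothelium and of fibroblasts were not analysed here, so the values below carry no check of the labels by gene. The genes are described by their levels and by the size and direction of their changes. The 2 largest rises and 2 largest falls on the log2(TPM + 1) scale are given by identifier.

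The knockout and wild-type libraries separated along the first principal component of log2(TPM + 1), which held 46.3% of the variance. All 3 wild-type libraries lay on one side, at -33.8, -32.2 and -29.3, and all 3 knockout libraries on the other, at 33.9, 31.1 and 30.2. The second component held 17.9% and spread libraries within both groups. For a pair of libraries, the log2 differences over all tested genes had an SD of 0.485 to 0.516 within wild type and 0.411 to 0.468 within the knockout. Between groups it was 0.613 to 0.677, so each of the 9 pairs across groups differed more than any of the 6 pairs within a group. From the ratios of low values, the depth relative to wild-type replicate 1 was about 1.21 and 1.32 for wild-type replicates 2 and 3 and 1.35 to 1.78 for the knockout. The most frequent ratio held only 7.49 to 10.5% of the low values compared with wild-type replicate 1, so the estimate is rough. By it the knockout libraries were the deeper ones, but knockout replicate 2 (1.35) lay close to wild-type replicate 3 (1.32). Knockout replicate 2 also listed the fewest identifiers above 0, at 25483, beside 25570 in wild-type replicate 1. The part of depth in the results was not tested.

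**Figure D1:**
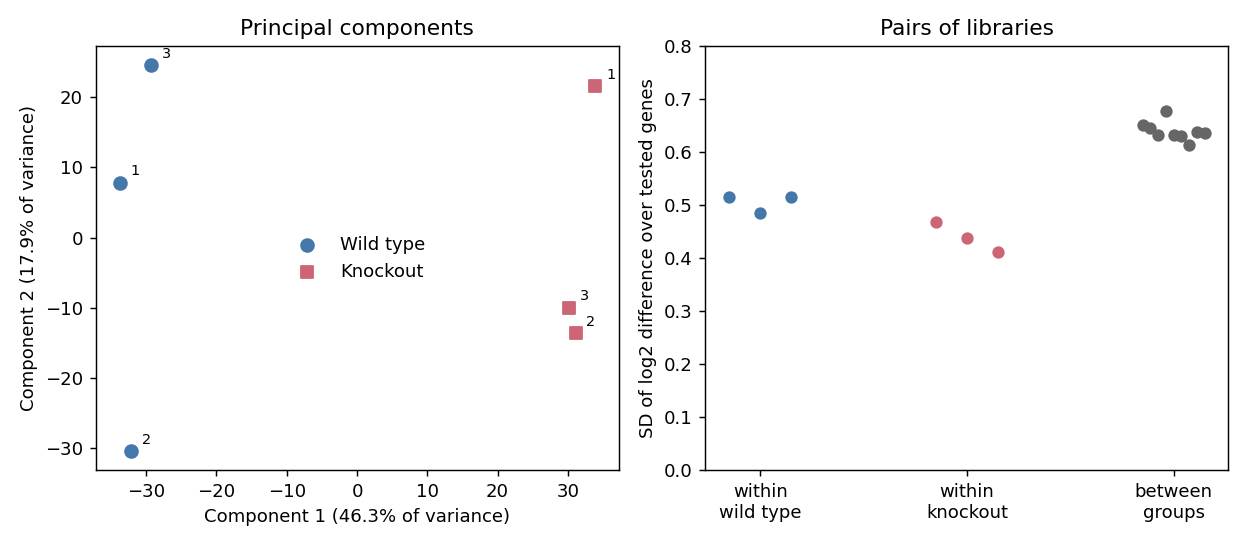
Left, the 6 libraries on the first 2 principal components of log2(TPM + 1), with replicate numbers. Right, the SD of log2 differences over tested genes for each pair of libraries, where the pairs between groups (0.613 to 0.677) all sit above the pairs within wild type and within the knockout.

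More genes were lower than higher in the knockout. On log2(TPM + 1), limma with a mean-variance trend and Benjamini-Hochberg adjustment called 3065 genes at an adjusted p of at most 0.05, which is 20.0% of those tested. Of these, 1220 were higher in the knockout (7.97% of tested genes) and 1845 were lower (12.1%). The median log2 fold change over all tested genes was -0.04, and 5% to 95% of genes lay between -0.84 and 0.61. The 3 values of one group lay wholly above the 3 of the other for 6132 genes (40.1% of tested genes), with 2629 higher in the knockout (17.2%) and 3503 lower (22.9%). The number of calls fell when any 1 of the 6 libraries was left out, each fit with fewer samples. Without wild-type replicate 1 there were 584 higher and 975 lower, and without wild-type replicate 3 there were 759 and 1209. The calls were 543 and 1008 without knockout replicate 2, and 578 and 1243 without knockout replicate 3. They fell less without wild-type replicate 2 (832 and 1597) or knockout replicate 1 (1107 and 1423). In each of these smaller fits the lower calls still outnumbered the higher ones. A fit to all 6 libraries with the replicate number as a block called 534 higher and 1030 lower.

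**Figure D2:**
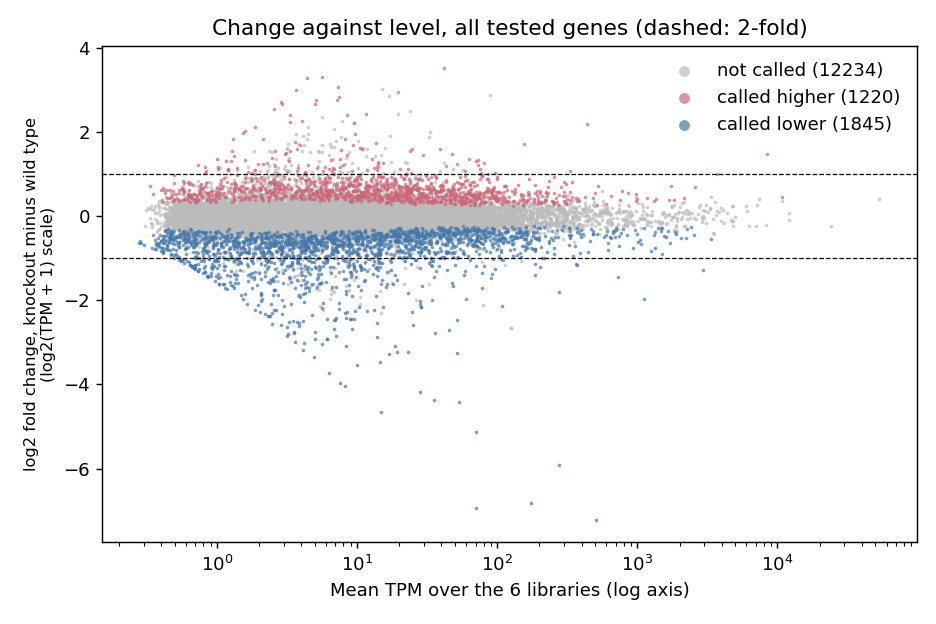
Each point is 1 of the 15299 tested genes, with its mean TPM over the 6 libraries on a log axis and its log2 fold change, knockout minus wild type, on the log2(TPM + 1) scale. The falls reach -7.21 and the rises 3.50, and genes with a low mean cannot show a large change on this scale.

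Falls outnumbered rises at each size of change counted. Among called genes, 116 rose at least 2-fold (0.758% of tested genes) and 427 fell at least 2-fold (2.79%). At 4-fold the numbers were 22 and 94, and at 8-fold they were 5 and 24. At 16-fold on this scale they were 0 and 10. These numbers depend on the pseudocount, which holds down the change of low genes: with 0.1 in place of 1, 255 genes rose and 735 fell at least 2-fold, 53 and 272 at least 4-fold, 23 and 136 at least 8-fold, and 12 and 55 at least 16-fold. Without any 1 of the 6 libraries, the 2-fold rises numbered 99 to 140 and the 2-fold falls 398 to 448.

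Some of these genes entered the test through one group alone. No wild-type library reached 0.5 TPM for 116 tested genes, of which 77 were called higher and 22 rose at least 2-fold. No knockout library reached it for 322 tested genes, of which 276 were called lower and 120 fell at least 2-fold. Such genes had to differ to be tested, so the excess of falls was also counted among the 6862 genes whose mean over all 6 libraries was 10 TPM or more. There, 689 were higher and 820 lower, with 39 rises and 116 falls of at least 2-fold. Of these genes, 2 had no knockout library at 0.5 TPM, both among the falls of at least 2-fold, and without them 818 were lower and 114 fell at least 2-fold. At the limit of the rule, the third highest value of a gene was 0.50018 TPM for the lowest gene kept and 0.49966 TPM for the highest gene left out, and 487 genes inside and 629 outside lay within 0.1 TPM of the limit.

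Some genes were near silent in one group. All of them passed the filter only through the group where they were present and so had to differ, and their numbers are a description of the table that supports no comparison. Under 0.5 TPM in every knockout library and at least 1 TPM in every wild-type library were 118 genes, and the opposite pattern was seen in 21. With a limit of at least 5 TPM in the group where the gene was present, the numbers were 16 and 3. Among tested genes, 29 were listed at 0 in all 3 knockout libraries and 9 in all 3 wild-type libraries. An exact 0 in a table of TPM says only that the gene is listed at 0, and the part of depth in these values was not tested.

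On the log2(TPM + 1) scale the largest fall belonged to ENSG00000227234, an abundant transcript in wild-type cells. Wild-type cells held 988, 1002 and 1048 TPM, against 6.23, 5.05 and 6.29 TPM in knockout cells. The lowest wild-type value was thus far above the highest knockout value, and the replicates of each group lay close together. Its mean went from 1012 ± 31.2 TPM to 5.86 ± 0.696 TPM (SD, n = 3 each), a ratio of 173. This is a log2 fold change of -7.21 with an SE of 0.092, and limma gave an adjusted p of 4.46e-07.

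ENSG00000196611 had the next largest fall on this scale, and the larger one of the pair as a ratio of means (847). Its wild-type libraries held 140, 155 and 130 TPM, and its knockout libraries 0.101, 0.0802 and 0.321 TPM. Every knockout value was under the 0.5 TPM limit used for the test, so this gene was abundant in one group and near silent in the other. It entered the test through wild type alone and so had to differ, and its adjusted p is no added support. Its mean went from 142 ± 12.7 to 0.167 ± 0.134 TPM (SD, n = 3 each), or -6.94 on the log2 scale with an SE of 0.12 and a limma adjusted p of 2.48e-06. The size of this value depended on the pseudocount: with 0.1 in place of 1 it was -9.16 (adjusted p = 5.9e-05), beyond the -7.42 of ENSG00000227234, so the order of the 2 falls turned.

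On the log2(TPM + 1) scale the largest rise was that of ENSG00000101210, a transcript already present in wild-type cells. Wild-type cells held 5.71, 4.898 and 7.15 TPM and knockout cells 74.8, 76.4 and 79.5 TPM, with no overlap between the groups. Its mean rose from 5.92 ± 1.14 to 76.9 ± 2.41 TPM (SD, n = 3 each), a ratio of 12.99. The change was 3.50 on the log2 scale with an SE of 0.13 and a limma adjusted p of 4.49e-05.

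ENSG00000152137 rose from a low level. Its values were 0.196, 0.278 and 0.202 TPM in wild type, and 10.7, 10.7 and 11.9 TPM in the knockout. No wild-type value reached the 0.5 TPM limit, so this gene entered the test through the knockout alone and had to differ. Its adjusted p and its lack of overlap are thus no added support. The groups did not overlap, and its mean went from 0.225 ± 0.0455 to 11.1 ± 0.694 TPM (SD, n = 3 each), a ratio of 49.3. On the log2 scale the change was 3.30 with an SE of 0.10 and a limma adjusted p of 2.88e-05, and it moved to 5.11 with a pseudocount of 0.1 (adjusted p = 4.96e-05), where ENSG00000101210 stood at 3.69, so the order of the 2 rises turned as well.

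**Figure D3:**
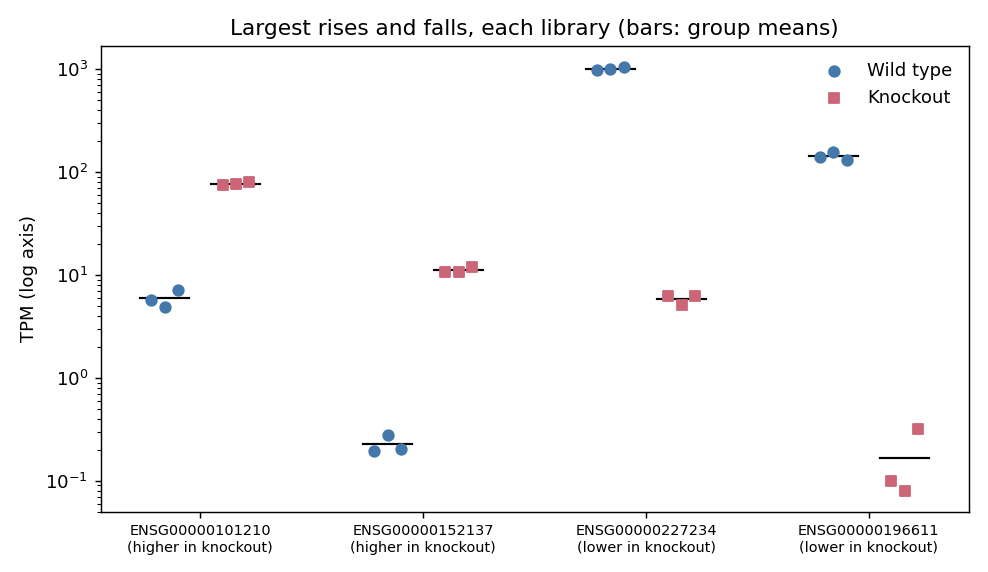
TPM on a log axis in each of the 3 wild-type and 3 knockout libraries for the 2 largest rises and the 2 largest falls on the log2(TPM + 1) scale, with black bars at the group means. In all 4 genes the groups do not overlap, which was a condition of their choice. ENSG00000227234 held 988 to 1048 TPM in wild type against 5.05 to 6.29 TPM in the knockout. ENSG00000152137 held 0.196 to 0.278 TPM in wild type against 10.7 to 11.9 TPM in the knockout.

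These 4 genes head lists chosen by size among called genes whose groups did not overlap and whose higher group averaged 5 TPM or more. A call and a lack of overlap were thus conditions of the choice. Neither is added support for the 4 genes or for the lists. In all, 921 higher and 1201 lower genes met these conditions, and 84 and 264 of them changed at least 2-fold. The levels of the 15 largest falls and the 15 largest rises are given as description. On log2(TPM + 1) a larger change requires a higher level in the higher group. The levels of the falls thus follow in part from the ranking. The falls started from wild-type means of 9.74 to 1012 TPM, with a median of 54.2 TPM, and 6 of them had at least 100 TPM in wild type. Their log2 fold changes ran from -3.35 to -7.21 with a median of -4.37 (limma adjusted p from 4.46e-07 to 0.00109). The rises ended at knockout means of 5.13 to 76.9 TPM, with a median of 11.1 TPM, and 0 of them reached 100 TPM. Their log2 fold changes ran from 2.40 to 3.50 with a median of 2.75 (limma adjusted p from 2.88e-05 to 0.04995). Of the 15 rises, 5 were listed at 0 in all wild-type libraries and 8 in at least 1. Of the 15 falls, 1 was listed at 0 in all knockout libraries and 4 in at least 1. Those 5 rises had knockout means of 5.13 to 8.84 TPM, and that 1 fall had a wild-type mean of 16.5 TPM. The reads behind these values are unknown and may be few, which was not tested. The 2 lists, their medians and their adjusted p ranges may thus include genes with little read support. Both lists also hold genes under 0.5 TPM in every library of their lower group, among them ENSG00000152137 and ENSG00000196611. Such genes entered the test through one group alone and had to differ, so the adjusted p ranges are no added support.

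Among abundant genes, as among all called genes, most called changes were under 2-fold. With at least 100 TPM in the higher group and no overlap, 167 called genes were higher and 231 lower, and of these 13 and 25 changed at least 2-fold. The called genes were also summed as shares of the transcript pool. The 1220 genes called higher made up 6.98 ± 0.311% of TPM in wild type and 10.8 ± 0.468% in the knockout (SD, n = 3 each), and the 1845 called lower made up 14.2 ± 0.6% and 9.29 ± 0.269%. The 427 genes that fell at least 2-fold held 1.8 ± 0.104% of TPM in wild type and 0.544 ± 0.0309% in the knockout. The 116 that rose at least 2-fold held 0.818 ± 0.0167% and 2.1 ± 0.151%. These shares describe genes that were chosen by the same values and carry no test.

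The share of genes called higher was smallest among the least abundant genes. Classed by the mean TPM over all 6 libraries, 5.18% of the 1968 genes under 1 TPM were higher and 13.3% were lower. Genes that entered the test through one group alone had to differ, and all but 2 of them had a mean under 10 TPM. The shares called under 10 TPM thus follow in part from the filter. From 10 to 30 TPM, with 3292 genes, the shares were 9.11% and 10.3%, and from 30 to 100 TPM, with 2271 genes, they were 11.6% and 12.3%. Among the 1299 genes at 100 TPM and over, 9.62% were higher and 15.5% lower. The median SD of log2(TPM + 1) within groups was highest, at 0.18, from 3 to 10 TPM and lowest, at 0.12, at 100 TPM and over.

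**Figure D4:**
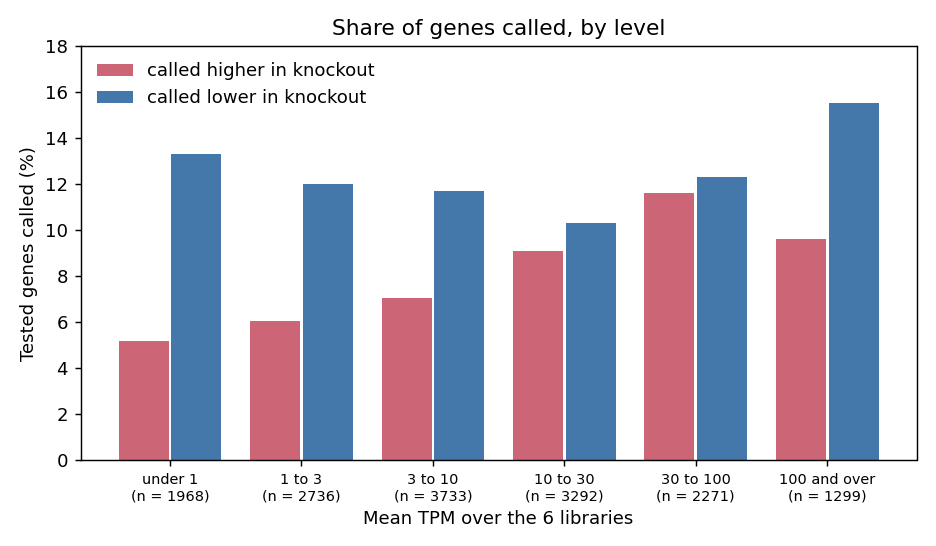
Bars give the percentage of tested genes called higher (red) and lower (blue) in the knockout, in 6 classes of mean TPM over the 6 libraries, with the number of tested genes under each class. The share called lower exceeds the share called higher in every class, by the least from 30 to 100 TPM (12.3% against 11.6%).

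The scale of the libraries bears on the balance of small changes. The most abundant identifier took up 3.71 to 5.92% of TPM in wild type and 4.95 to 7.87% in the knockout, and the 10 most abundant held 13.2 to 15.6% and 15.7 to 18.2%. Scaling by the median ratio to the geometric mean gave 1554 higher and 1769 lower genes, and omission of the 10 most abundant, after which libraries were rescaled and 15746 genes passed the filter, gave 1507 and 1698. The higher share of calls was 39.8% in TPM, 46.8% under median-ratio scaling and 47.02% without the 10 most abundant. Falls of at least 2-fold numbered 402 and 427 in these 2 settings, against 126 and 134 rises.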

How the data were processed

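Single-end sequencing of poly(A) RNA was done on wild-type and PFKFB4 knockout MDA-MB-231 cells, 3 libraries each, made with the Roche mRNA HyperPrep kit, per the labels' protocols. The authors deposited TPM, in 1 column per library that sums to 1000000. Per the submitters' processing notes, TopHat2 2.1.1, CASAVA 1.8.2, Subread 1.6.4 and its counter featureCounts were used, and the human build was GRCh38.p7. The step that made TPM, and the handling of strand and multi-mapped reads, is not given in the sources used here, so genes with near-identical copies are uncertain. Whether the largest falls and rises, among them the genes given by identifier, have such copies was not checked. TPM gives no read numbers, so depth per gene is unknown. Relative depth of a library is the most frequent ratio of wild-type replicate 1 values to its own values. Only values above 0 and under 0.2 TPM in both libraries entered it.

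Differences were tested on log2(TPM + 1) with limma 3.58.1 (R 4.3.3) and its mean-variance trend, over genes that reached 0.5 TPM in 3 or more libraries. Adjusted p is Benjamini-Hochberg over all 15299 genes, with calls at 0.05. Fold changes understate low genes. The labels call the libraries biological replicates without saying whether cultures were separate, so the p-values cover only the spread among these libraries, which may be technical.

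The genes, limits and lists were chosen with earlier results of these data known. Named genes were to be PFKFB1 to PFKFB4, list members and the 15 largest changes per direction among called, non-overlapping protein-coding genes whose higher group averaged 5 TPM or more. Without gene names only the last was applied, without its gene type and symbol criteria, and 2 identifiers per direction are given. The 57 gene lists and the marker lists were not applied. Alternatives were limma without a trend, median-ratio scaling, other filters, a pseudocount of 0.1, a replicate block, a minimum change, omission of abundant genes and leaving out each library. The mouse table was not used.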

Additional observations from a re-analysis of the deposited data

How the results depend on the processing

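Lower calls outnumbered higher ones under every alternative run. The 4 genes given by identifier kept their direction and their call under all 13 alternatives with a fit of their own, with log2 fold changes of 3.40 to 3.69 for ENSG00000101210, 3.26 to 5.11 for ENSG00000152137, -7.42 to -7.13 for ENSG00000227234 and -9.16 to -6.87 for ENSG00000196611, and a highest limma adjusted p of 0.0017. These genes were chosen as extremes of the same libraries, so that they kept their call was close to fixed in advance. ENSG00000152137 and ENSG00000196611 also entered the test through one group alone. Leaving out 1 library gave 543 to 1107 higher and 975 to 1597 lower genes, each fit with fewer samples. A minimum change of 2-fold left 116 and 427 by construction. Without a filter, 859 were higher and 1553 lower. With a replicate block, which leaves fewer residual degrees of freedom, 534 were higher and 1030 lower, and 1504 of these 1564 genes were among the 3065. The deviations from the group means of same-numbered libraries correlated at 0.0017, 0.114 and -0.127, and those of libraries with different numbers at -0.182 to 0.191. Deviations from a group mean depend on each other in so few libraries. These correlations therefore cannot decide whether the replicate numbers pair the samples. Median-ratio scaling shared 2812 of its 3323 calls with those in TPM. Protein-coding genes alone, a count model and the gene lists were not run, because gene types and names were not matched and TPM holds no counts. Depth limits the low genes, since the number of reads behind a value at or near 0 is unknown. Higher values may also rest on few reads.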
